A study of Mus musculus with 20 samples.

Results

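Genes of neutral amino acid, glycine and taurine transport were examined for binding of ATF4, the bZIP transcription factor of the integrated stress response. The 9 genes were Slc38a1, Slc38a2, Slc38a7, Slc1a4, Slc1a5, Slc6a9, Slc6a6, Slc36a1 and Slc36a4. They were chosen by name out of 21631 protein-coding genes of the autosomes and the X chromosome. The choice was made with earlier results of these data known, so their shares are not those of an unselected set. ATF4 was mapped by CUT&Tag, in which an antibody tethers a transposase next to the bound protein so that the neighbouring DNA is tagged and sequenced. The cells were C2C12, a mouse myoblast line of wild-type genotype, kept for 6 h in DMSO, the solvent control, or in 100 nM thapsigargin, which blocks the calcium pump of the endoplasmic reticulum and so causes stress in that organelle. The series has 20 samples in 10 groups of 2, and the groups used here are ATF4 in DMSO and ATF4 in thapsigargin, with 4 samples. Each of these groups is represented by 1 list of peaks that the authors deposited, with 803 peaks in DMSO and 8619 in thapsigargin.

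The lists give positions only. They hold no peak height and no value per replicate, so no replicate error could be computed, the read depth is unknown, and a peak missing from a list is not evidence that ATF4 was absent. The lists also differ in length, and the part of read depth, calling threshold and binding in that was not tested. Nor do lists of 1 factor's peaks hold values by which the myoblast label could be checked. The counts below are therefore descriptions, read against the share of all protein-coding genes that met the same rule. Positions are those of the mouse build mm10 and count from 1, and gene positions come from the RefSeq table of the matching assembly GRCm38.p6.

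As background, the 9 proteins carry amino acids or taurine across membranes. The Slc38 proteins move glutamine, alanine and related amino acids together with sodium: SLC38A1 and SLC38A2 work at the cell surface, and SLC38A7 is known as a transporter of the lysosome membrane. SLC1A4 and SLC1A5 are exchangers, the former for alanine, serine and cysteine and the latter with glutamine as its main substrate. SLC6A9 takes up glycine and SLC6A6 takes up taurine, both driven by sodium and chloride, while SLC36A1 and SLC36A4 belong to the proton-coupled family. In the stress response, phosphorylation of the translation factor eIF2 lowers general protein synthesis and raises that of ATF4, which binds DNA as a dimer, often with a C/EBP protein, and is known to activate genes of amino acid synthesis and uptake. Slc38a2 is a textbook case, with a known amino acid response element in its first intron.

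ATF4 peaks lay at the start of 4 of the 9 genes, Slc1a4, Slc38a2, Slc38a7 and Slc6a9, and these 4 had a peak there in DMSO as well as in thapsigargin. A peak counted as lying at a gene end when its centre was within 1 kb of that end. Of all protein-coding genes, 1.29% met this rule in DMSO, 15.1% in thapsigargin and 1.27% in both, against 4 of 9 (44.4%) for the transporters in each. With a window of 500 bp the count in thapsigargin was 2 of 9, Slc1a4 and Slc38a2, against 12.5% of all genes, and that in DMSO 3 of 9, with Slc6a9, against 0.962%. Slc38a1 and Slc1a5 had a thapsigargin peak inside the gene, over 1 kb from its ends, and no DMSO peak. Their annotated starts were not available, so whether these peaks lay at a start was not determined. Slc6a6, Slc36a1 and Slc36a4 had no peak of either list within 50 kb. Gene by gene, 13.8% of all protein-coding genes had a peak at an end in thapsigargin without one in DMSO, and none of the 9 transporters did.

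The promoter sequences of the 4 genes with peaks in both lists show where the peaks fall on the DNA. RefSeq promoter windows of GRCm38.p6, which reach from 250 bases before an annotated start to 50 bases from it on, were found for 6 of the 9 genes: Slc38a2, Slc38a7, Slc1a4, Slc6a9, Slc36a1 and Slc36a4. The entries for Slc38a1, Slc1a5 and Slc6a6 are missing. The windows were searched on both strands for the C/EBP-ATF composite element TGATGNAA, in which a part of a C/EBP site is joined to a part of an ATF site, for the cyclic AMP response element TGACGTCA, for the AP-1 site TGAGTCA and for the C/EBP palindrome TTGCGCAA. No match of one of these motifs is also a match of another, though neighbouring matches can overlap in part.

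The Slc1a4 window is shown because it was the only one of the 8 windows of these genes with a match to any of the 4 motifs. The sequence below runs 5′ to 3′ on the gene's strand (minus) over chr11:20332710-20332963, from 250 bases before the start to the first 4 bases of the gene, with the composite element in capitals.
Slc1a4: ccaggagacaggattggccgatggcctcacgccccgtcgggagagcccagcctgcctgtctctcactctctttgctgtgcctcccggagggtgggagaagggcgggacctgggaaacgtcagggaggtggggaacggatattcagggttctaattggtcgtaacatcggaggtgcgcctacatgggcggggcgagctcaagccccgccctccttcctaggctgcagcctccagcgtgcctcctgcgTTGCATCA
The match reads TTGCATCA on the gene's strand and TGATGCAA on the other, and it lies at positions 20332710 to 20332717 of chromosome 11, with 4 bases on each side of the border between promoter and gene. It is inside both the DMSO peak and the thapsigargin peak of Slc1a4. The element TGATGNAA was found in 3.97% of all 32851 promoter windows of the table, which covers genes of all types, and the stricter form TGATGCAA, which the Slc1a4 site also matches, in 0.895%.

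The other promoters with a peak in both lists are shown for the part that lies under the peaks. In these sequences, 5′ to 3′ on each gene's strand over the 250 bases before the first start, capitals mark bases inside the peaks of both lists. They come from chr15:96699729-96699978 (minus strand), chr8:95853492-95853741 (minus strand) and chr4:117835008-117835257 (plus strand).
Slc38a2: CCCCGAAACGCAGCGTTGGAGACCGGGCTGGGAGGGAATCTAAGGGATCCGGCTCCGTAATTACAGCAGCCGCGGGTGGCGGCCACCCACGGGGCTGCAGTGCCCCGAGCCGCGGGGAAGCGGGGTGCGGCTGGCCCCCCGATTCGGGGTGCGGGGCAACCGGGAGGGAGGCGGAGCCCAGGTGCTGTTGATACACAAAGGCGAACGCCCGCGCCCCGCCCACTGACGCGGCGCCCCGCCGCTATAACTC
Slc38a7: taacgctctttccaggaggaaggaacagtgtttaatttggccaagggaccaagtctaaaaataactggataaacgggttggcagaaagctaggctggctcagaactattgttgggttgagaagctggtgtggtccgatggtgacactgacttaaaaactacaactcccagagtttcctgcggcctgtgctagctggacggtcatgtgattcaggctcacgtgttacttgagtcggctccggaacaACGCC
Slc6a9: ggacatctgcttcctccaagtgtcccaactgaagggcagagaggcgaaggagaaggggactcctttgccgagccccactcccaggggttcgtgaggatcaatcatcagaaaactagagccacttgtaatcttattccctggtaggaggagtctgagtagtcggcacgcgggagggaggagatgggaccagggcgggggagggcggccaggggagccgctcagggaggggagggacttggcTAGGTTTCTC
At Slc38a2 all 250 bases were inside both peaks. At Slc38a7 the DMSO peak took in only the last 5 bases before the start and the thapsigargin peak the last 60. At Slc6a9 these were the last 10 bases in DMSO and the last 107 in thapsigargin. At Slc38a7 and Slc6a9 the peaks thus lay almost wholly on the gene's side of the start, where no sequence was searched beyond the first 50 bases. None of the 3 windows matched any of the 4 motifs, which says only that these letters are not in these windows. The windows differed in base composition, with a GC content of 73.0% at Slc38a2, 65.0% at Slc1a4, 59.0% at the first start of Slc6a9 and 50.3% at Slc38a7.

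Across the genome, the composite element was more frequent in windows like that of Slc1a4, whose start lay inside a peak of both lists. It was present in 56 of 233 such windows (24.0%), in 86 of 2974 windows with the start in a thapsigargin peak alone (2.89%) and in 1162 of 29644 windows with the start in no peak (3.92%). The stricter form, as found at Slc1a4, was present in 11.6%, 1.04% and 0.796% of these classes. The windows at Slc38a2, Slc38a7 and the first start of Slc6a9 were among the 233 and belonged to the larger part without the element. The cyclic AMP response element followed another order, with 2.15% in windows with a peak of both lists, 5.08% with a thapsigargin peak alone, 1.46% with none and 1.79% overall. For the AP-1 site the 3 shares were 5.15%, 3.97% and 5.33%, and 5.20% overall. The C/EBP palindrome was found in 0 of the 233 windows, in 0.504% with a thapsigargin peak alone, in 0.152% with none and in 0.183% of all. These shares are descriptions, and windows of 1 gene or of neighbouring genes can overlap.

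**Figure D1:**
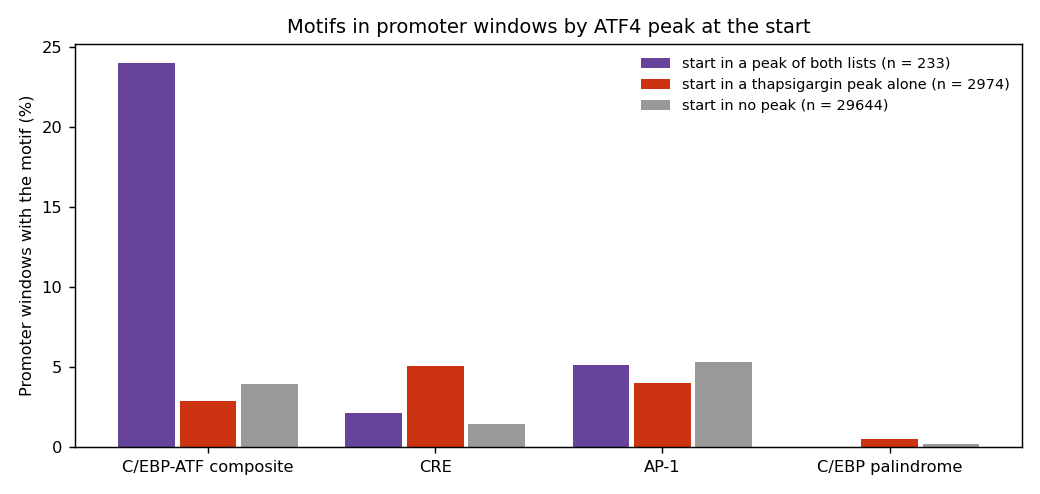
Share of RefSeq promoter windows (vertical axis, %) that hold each of 4 motifs, for windows whose start lies in a peak of both lists (n = 233), in a thapsigargin peak alone (n = 2974) or in no peak (n = 29644). The composite element stands at 24.0% in the first class and at 2.89% and 3.92% in the others.

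The exchanger gene Slc1a4 (chromosome 11, 20302180 to 20332713, 30.5 kb, minus strand) had the widest DMSO peak among the 9 genes. That peak spanned 20331871 to 20333279 (1409 bp) and the thapsigargin peak 20331709 to 20333321 (1613 bp). The centres lay 138 bp and 198 bp into the gene, and the nearest end of another protein-coding gene, Cep68, was over 83 kb away. The DMSO peak was wholly inside the thapsigargin peak, which was 1.14 times as wide. This ratio was low among the 799 overlapping pairs of the 2 lists, where the median was 1.56 and the range from the 10th to the 90th percentile was 1.14 to 2.71. In thapsigargin a second peak lay 8.60 kb upstream of the start (20340679 to 20341943, 1265 bp), with no DMSO peak below it.

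Slc38a2 (chromosome 15, 96687392 to 96699728, 12.3 kb, minus strand) had a DMSO peak from 96698894 to 96699994 (1101 bp) and a thapsigargin peak from 96698523 to 96700518 (1996 bp). The centres lay 284 bp and 208 bp into the gene. The thapsigargin peak reached 524 bp farther upstream and 371 bp farther downstream than the DMSO peak and was 1.81 times as wide. It covered 790 bases before the start and the first 1206 bases of the gene, and the DMSO peak 266 and 835. The table used here gives no exon borders, so the place of these peaks relative to the first intron was not determined.

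Slc38a2 also had the most thapsigargin peaks around it. Within 50 kb of the gene there were 4, a number reached by 3.26% of protein-coding genes. Besides the one at the start, a peak lay 9.96 kb upstream (96709218 to 96710153, 936 bp) and another 43.3 kb upstream (96742057 to 96743911, 1855 bp). The fourth, 45.4 kb beyond the other end of the gene, was the peak inside Slc38a1. None of these 3 had a DMSO peak below it.

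At Slc38a7 (chromosome 8, 95835920 to 95853577, 17.7 kb, minus strand) the peaks began at or just before the first annotated start, 95853491, and ran into the gene. The DMSO peak spanned 95852210 to 95853496 (1287 bp) and the thapsigargin peak 95851970 to 95853551 (1582 bp), 1.23 times as wide. The centres lay 638 bp and 730 bp downstream of the start, and 724 bp and 816 bp from the gene's end in the table. With a window of 500 bp in place of 1 kb neither centre counted. In thapsigargin, 2 more peaks lay within 50 kb of Slc38a7, but each was much closer to another gene. The first was centred 500 bp from an end of Cnot1, which encodes the scaffold of the CCR4-NOT complex of mRNA decay, and the second 481 bp from an end of Got2, the gene of mitochondrial aspartate transaminase.

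The glycine transporter gene Slc6a9 (chromosome 4, 117835258 to 117869305, 34 kb, plus strand) had 2 separate DMSO peaks under 1 thapsigargin peak. The DMSO peaks spanned 117835248 to 117836159 (912 bp) and 117836421 to 117837238 (818 bp), with 261 bp between them. The thapsigargin peak ran over both, from 117835151 to 117837239 (2089 bp), and ended 1 bp beyond the second DMSO peak. It was the widest of the peaks at or in the transporter genes. Only 2 of the 797 thapsigargin peaks over a DMSO peak (0.251%) covered more than 1. The other, named after its values were seen, was a peak of 3135 bp on chromosome 5 (53509178 to 53512312), 45.0 kb from the nearest gene end, that of Rbpj.

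The double peak sets where Slc6a9 counts. The first DMSO peak was centred 446 bp and the second 1571.5 bp downstream of the first start, so the second lay inside the gene, over 1 kb from its ends, as was so in DMSO for 1 of the 9 transporters and for 1.30% of all genes. The centre of the thapsigargin peak was at 937 bp, just inside the window of 1 kb and outside a window of 500 bp. RefSeq gives further Slc6a9 starts at 117849350 and 117855547, and neither lay in a peak. A second thapsigargin peak, 46.1 kb beyond the far end of the gene, was centred 142 bp from an end of Ipo13, which encodes a nuclear import receptor.

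**Figure D2:**
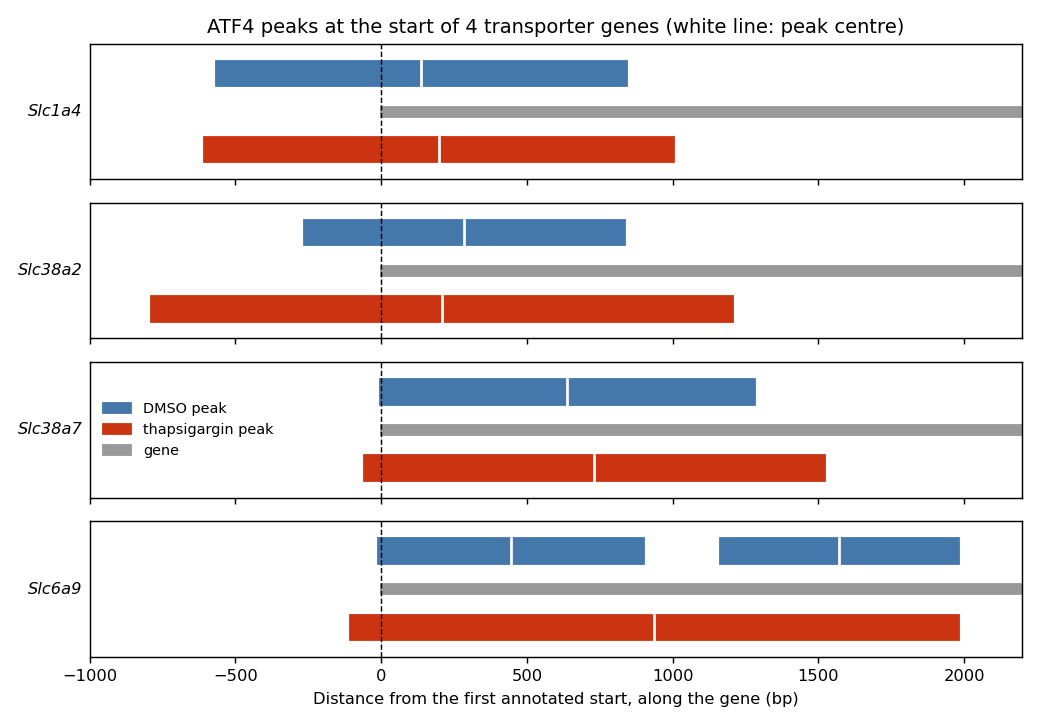
ATF4 peaks at the first annotated start (dashed line, 0 bp) of Slc1a4, Slc38a2, Slc38a7 and Slc6a9, drawn along each gene's own direction, with DMSO peaks above the gene bar and thapsigargin peaks below. White lines mark peak centres, all of which lie to the right of the start, and Slc6a9 has 2 DMSO peaks over 1 thapsigargin peak.

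Seen along the direction of the genes, all peaks at the 4 starts were centred downstream. In DMSO the nearest centres lay 138 bp (Slc1a4), 284 bp (Slc38a2), 446 bp (Slc6a9) and 638 bp (Slc38a7) into the gene. In thapsigargin they lay 198 bp, 208 bp, 937 bp and 730 bp into the gene, in the same order of genes. Over all annotated starts of protein-coding genes with a peak centre within 1 kb, the centre was downstream at 141 of 279 in DMSO (50.5%) and at 1614 of 3287 in thapsigargin (49.1%). There the 90th percentile of the position was 493 bp downstream in DMSO and 410 bp in thapsigargin. The peaks of Slc38a7 lay beyond it in both lists and that of Slc6a9 in thapsigargin. Each of the 4 starts was itself inside a DMSO peak and inside a thapsigargin peak. Of the 279 starts with a DMSO centre within 1 kb, 73.8% were inside a DMSO peak, and of the 3287 with a thapsigargin centre there, 84.7% were inside a thapsigargin peak.

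All 5 DMSO peaks at the 4 genes were wholly inside a thapsigargin peak. This held for 706 of all 799 pairs (88.4%), and 99.5% of all DMSO peaks overlapped a thapsigargin peak, so the transporters did as nearly all sites did. Where a single DMSO peak faced a single thapsigargin peak, the centres were 60 bp (Slc1a4), 76.5 bp (Slc38a2) and 92.5 bp (Slc38a7) apart, against a median of 97 bp over all pairs. At Slc6a9 the DMSO centres were 492 bp and 634 bp from that of the merged peak.

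Slc38a1 and Slc1a5 were found in the thapsigargin list alone. Slc38a1 (chromosome 15, 96571418 to 96643438, 72.0 kb) had a peak from 96641111 to 96642886 (1776 bp) inside the gene. Its centre was 1439.5 bp and its edge 552 bp from the end of higher coordinate, which is the end that faces Slc38a2. It was the nearest centre outside the window of 1 kb, and counting from the peak's edge in place of its centre would put Slc38a1 among the genes with a peak at an end, 5 of 9 against 16.2% of all genes. A further thapsigargin peak lay 23.1 kb outside the other end (96547911 to 96548801, 891 bp). The nearest DMSO peak to Slc38a1 was the one at the start of Slc38a2, 56.0 kb away.

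The glutamine exchanger gene Slc1a5 (chromosome 7, 16781334 to 16798274, 16.9 kb) had 1 thapsigargin peak, from 16783244 to 16785043 (1800 bp), centred 2.81 kb inside the end of lower coordinate. The nearest DMSO peak was 176 kb away. Its relative Slc1a4 thus had a peak in both lists, at its start, and Slc1a5 a peak in the thapsigargin list inside the gene. With no annotated start for Slc1a5, the distance of that peak from a start is unknown. A thapsigargin peak inside the gene and over 1 kb from both ends was found in 10.1% of all protein-coding genes, and in 2 of the 9 transporters. Over 3 kb from both ends it was found in 8.58% of all genes and in 0 of the 9. Within 3 kb of an end, 6 of the 9 transporters had a thapsigargin peak, against 18.6% of all genes, and 4 a DMSO peak, against 1.73%.

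Slc6a6, Slc36a1 and Slc36a4 lay apart from peaks of either list. At the taurine transporter gene Slc6a6 (chromosome 6, 91684048 to 91759063, 75.0 kb), the longest of the 9, the nearest thapsigargin peak was 64.2 kb and the nearest DMSO peak 423 kb from the gene. At Slc36a1 (chromosome 11, 55204322 to 55236330) these distances were 55.6 kb and 980 kb. At Slc36a4 (chromosome 9, 15709738 to 15742388) they were 352 kb and 5.71 Mb. Of all protein-coding genes 48.9% had no peak of either list within 50 kb, so 3 of 9 is no larger a share than in the genome. The peak 55.6 kb from Slc36a1 was the first one outside the window of 50 kb, and the one 46.1 kb from Slc6a9 the last inside it. The former was nearer to another gene, Fat2, an end of which lay 41.3 kb from the peak's centre.

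**Figure D3:**
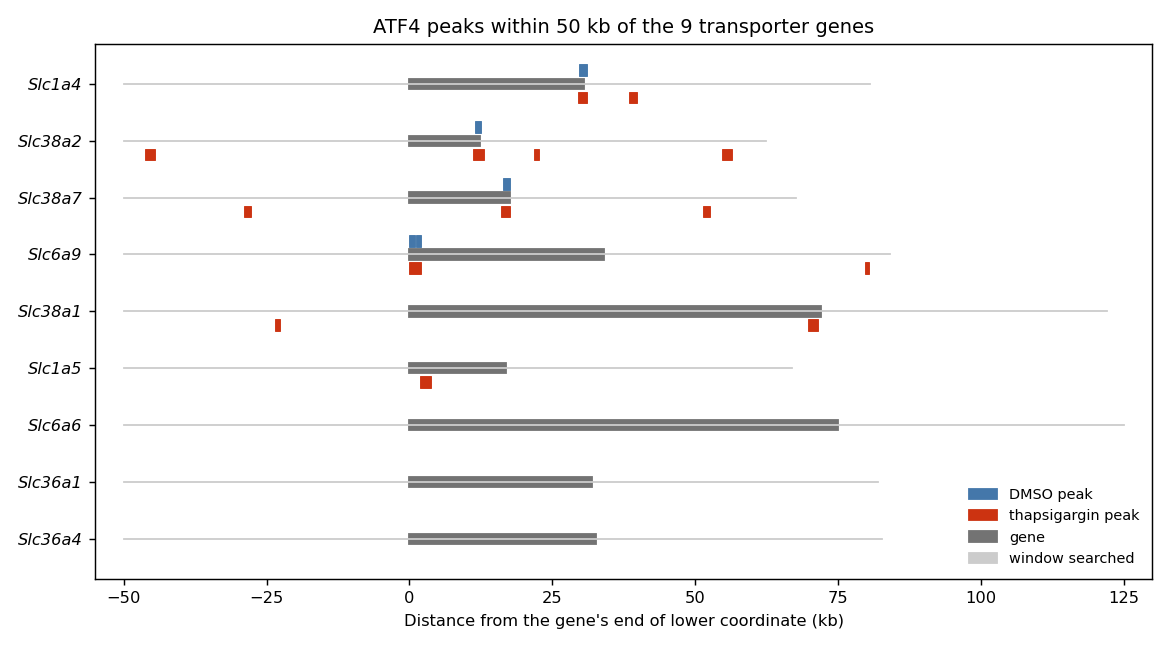
ATF4 peaks of the DMSO list (above each gene) and the thapsigargin list (below) within 50 kb of the 9 transporter genes, by distance in kb from the gene's end of lower coordinate. Slc1a4, Slc38a2, Slc38a7 and Slc6a9 have peaks of both lists at 1 end, Slc38a1 and Slc1a5 thapsigargin peaks alone, and the lowest 3 genes none.

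A thapsigargin peak within 50 kb was found for 6 of the 9 transporters, against 51.1% of all protein-coding genes, and a DMSO peak for 4 of 9, against 8.01%. Read against that background, the thapsigargin count at this reach is not a result about these genes. The number of thapsigargin peaks within 50 kb was 4 for Slc38a2, 3 for Slc38a7, 2 each for Slc1a4, Slc6a9 and Slc38a1, and 1 for Slc1a5. At least 2 were found around 24.4% of all genes and at least 3 around 9.38%. Slc38a1 and Slc38a2 share part of this count, since the peak inside Slc38a1 was within reach of both.

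Peak width was the only other measure in the lists. It is not a measure of occupancy and also depends on read depth. In the thapsigargin list the 6 peaks at or in transporter genes were 1582 bp (Slc38a7), 1613 bp (Slc1a4), 1776 bp (Slc38a1), 1800 bp (Slc1a5), 1996 bp (Slc38a2) and 2089 bp (Slc6a9) wide, against a median of 1037 bp for the list. All 6 were thus in the wide part of the list, between its percentiles 88.7 and 98.0. A width of 1582 bp or more was found for 11.3% of all thapsigargin peaks and for 11.2% of those centred within 3 kb of a protein-coding gene's end. Peaks over a DMSO peak were wider than the rest, with medians of 1377 bp and 1005 bp. Within the first class the 4 transporter peaks stood at the percentiles 69.6 (Slc38a7), 71.5 (Slc1a4), 90.6 (Slc38a2) and 93.2 (Slc6a9). Slc38a1 and Slc1a5, which had no DMSO peak, stood at 95.5 and 95.9 within the second.

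In the DMSO list the order of the genes was different. There the peak of Slc1a4 (1409 bp) was the widest, at percentile 92.3, followed by those of Slc38a7 (1287 bp, 87.7), Slc38a2 (1101 bp, 76.1) and Slc6a9 (912 bp, 57.6, and 818 bp, 46.6), around a median of 856 bp for the list. Slc1a4 and Slc38a7, the widest in DMSO, were thus the narrowest of the 4 in thapsigargin. The place of Slc6a9 rests on counting its 2 DMSO peaks, 261 bp apart, as separate. Together they reached from 117835248 to 117837238, nearly the whole span of the thapsigargin peak. With 4 genes and 1 list a condition, this order has no error.

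**Figure D4:**
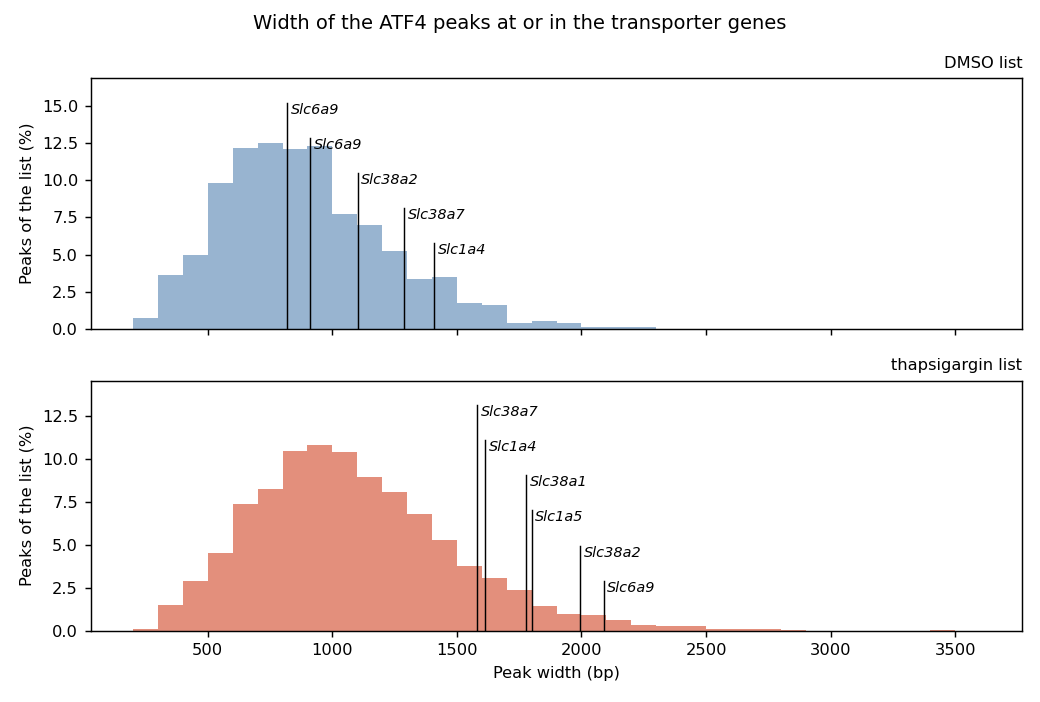
Width of the ATF4 peaks at or in the transporter genes (black lines, named) on the distribution of all widths in the DMSO list (top) and the thapsigargin list (bottom), in bins of 100 bp as a percentage of the list. The 6 thapsigargin peaks lie at 1582 bp or more, and the DMSO peaks lie between 818 bp and 1409 bp.

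The other genes of the same families were counted by the same rule. Of the 33 other genes of the Slc38, Slc1, Slc6 and Slc36 families, which include the carriers of several neurotransmitters, 0 had a DMSO peak at an end and 1 (3.03%) had a thapsigargin peak there, against 1.29% and 15.1% of all protein-coding genes. At the DMSO share a count of 0 says nothing particular about the 33. That gene was Slc38a6 (chromosome 12, 73286739 to 73361998), whose peak from 73286129 to 73287637 (1509 bp) was centred 144 bp from the gene's end. No DMSO peak was within 50 kb of any of the 33, against 8.01% of all genes. A thapsigargin peak was within 50 kb of 15 (45.5%), near the 51.1% of all genes. Slc38a4 shares a stretch of 485 kb on chromosome 15 with Slc38a1 and Slc38a2, in which 5 thapsigargin peaks and 1 DMSO peak were found, none of them within 50 kb of Slc38a4. The stretch of 112 kb on chromosome 11 that holds Slc36a1 and its relatives Slc36a2 and Slc36a3 had no peak. Neither stretch was compared with the peak density of the genome. The 9 genes had been chosen with earlier results of these data known, and the difference between them and their relatives was not tested.

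Among 20 transporter genes of other families, mostly Slc7, 1 had a peak at an end in DMSO and 4 (20%) in thapsigargin. The latter was near the 15.1% of all protein-coding genes, and the former is to be read against 1.29%. The gene with a DMSO peak was Slc7a1, a transporter of cationic amino acids, with a peak of 1643 bp in DMSO and 1739 bp in thapsigargin. The others in thapsigargin were Slc3a2, which encodes the heavy chain of heteromeric transporters, and Slc7a5 and Slc7a6, which encode light chains. Counted by annotated start in place of gene end, the thapsigargin count was again 4, with Slc7a11 in and Slc7a5 out. A gene without an entry for its start cannot count by this rule. The place of the Slc7a5 peak relative to its start was therefore not determined. Slc3a2 and Slc7a5 had DMSO peaks farther inside the gene, centred 6.34 kb and 9.21 kb from an end. By annotated start the DMSO count was 2, Slc7a1 and Slc3a2, since Slc3a2 has a start within 1 kb of its DMSO peak. Counted in that way, Slc3a2 had a peak in both lists, which the count by gene end leaves out. A peak at an end in both lists was found for 5 of the 62 transporter genes examined: Slc1a4, Slc38a2, Slc38a7, Slc6a9 and Slc7a1. Of these 5, 4 were among the 9 chosen genes, so the count does not describe amino acid transporters at large. The 33 other family genes gave 0 and the 20 other transporters 1 (5.00%), against 1.27% of all protein-coding genes.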

How the data were processed

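CUT&Tag was done on C2C12 cells with a Vazyme Hyperactive Universal kit, per the labels' protocols. The authors deposited 1 ATF4 peak list per treatment, whose columns are chromosome, start and end in bp, an other unit than counts or signal, with no header or score. The tools named, per the submitters' processing notes, are MACS2 2.2.7.1, Bowtie2 and Trim Galore 0.6.10, with mm10 as the build. The sources used here do not give their roles, the threshold, a control library or how replicates were combined. Groups came from the sample titles, nothing in the labels says whether replicates are separate cultures, and 8 groups were not used here.

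Peaks were set against the ends of protein-coding genes in the RefSeq table of GRCm38.p6, by peak centre, with windows of 1 kb and 50 kb and an overlap of at least 1 bp. Starts and strands came from the RefSeq promoter table, in which 1839 of 1839 overlapping windows of opposite strands were reverse complements. No statistical test was made, since each condition has 1 list. All 9 transporters are named, with relatives that have a peak at an end. Genes nearer to a named peak are named where that peak was within 100 kb of one of the 9. The members and lists were chosen with earlier results of these data known. The distance calculation was checked with simulated peaks planted at known places. Python 3.11.15, numpy 2.4.6, pandas 2.3.3 and matplotlib 3.10.9 were used.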

Additional observations from a re-analysis of the deposited data

How the results depend on the processing

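The counts of transporters with a peak at an end did not rest on 1 window alone, but the narrowest one lowered them. Of 23 alternative values for the 9 transporters, 19 stayed within 1.5 times the value given above. A count of 6 in place of 4 was taken as within this limit. Windows wider than the main one cannot lower a count, so the 19 are a weak check. With a window of 500 bp, 2 transporters had a thapsigargin peak at an end (Slc1a4 and Slc38a2, against 12.5% of all genes) and 3 a DMSO peak (with Slc6a9, against 0.962%). At 3 kb the counts were 6 in thapsigargin, against 18.6% of all genes, and 4 in DMSO, against 1.73%. At 5 kb they were again 6 and 4, against 21.1% in thapsigargin and 2.03% in DMSO. Among the peaks of each list at or above its median width, 4 transporters counted in both (0.740% of all genes in DMSO and 7.56% in thapsigargin). Their peaks at an end were all wider than the median, as given above, so this cut could not remove them. Width is not a measure of occupancy, so the cut does not stand in for a stricter threshold. With 3 kb in place of 1 kb from both ends, 0 transporters, in place of 1, had a peak inside the gene in DMSO (against 1.12% of all genes) and 0, in place of 2, in thapsigargin (against 8.58%). When peaks were matched by centres at most 100 bp apart, 3 of the 5 DMSO peaks had a thapsigargin partner, and the construction leaves out both peaks of Slc6a9. Of 24 values for the relatives, for which the alternatives were chosen after seeing the data, 6 moved by more than 1.5 times: the 1 family gene in thapsigargin became 3 at 3 kb, 5 at 5 kb, 2 by peak edge and 2 by annotated start, the 1 other transporter in DMSO became 2 by annotated start (with Slc3a2), and the 4 in thapsigargin became 2 among the wider peaks. No paired analysis was possible because only 1 list stands for each treatment, which also leaves no replicate to leave out.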
